A study of Caenorhabditis elegans with 2 samples.

Results

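Nuclear tRNA genes were examined in a small RNA library of whole worms (Caenorhabditis elegans). The strain is given as fem-1, a gene of the sex-determination pathway without which hermaphrodites make no sperm. The values are those of clusters of overlapping reads that the deposited list annotates as tRNA on the cluster's own strand, without an rRNA annotation and on the nuclear chromosomes. This gave 47 of the 51569 clusters in the list, on 43 tRNA genes, with 561 reads (95% Poisson interval 516 to 609). Of the clusters in the list, 49661 lie on chromosomes, the mitochondrial sequence included. The rest lie on a sequence named markov, which is not a worm chromosome and was left out of the tRNA set. The study made 2 libraries, monophosphate and polyphosphatase, with 1 in each group. Standard cloning, as in the monophosphate library, takes up RNAs that bear a 5′ monophosphate, and only clusters of that library were analysed here. No source used here gives the fem-1 allele or the stage and temperature of the worms. There was no replicate and no test between conditions, and the intervals, exact and at 95%, reflect counting error alone. In RNA from whole worms, few cells with much of a fragment and many cells with little of it cannot be told apart.

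Transfer RNAs bring amino acids to the ribosome. Their precursors are made by RNA polymerase III and trimmed by RNase P at the 5′ end and RNase Z at the 3′ end, after which the letters CCA, which nuclear tRNA genes of animals do not encode, are added to the 3′ end. Mature tRNAs carry many modified bases, some of which make reverse transcriptase stop or insert another base, so that sequenced copies can differ from the genome. tRNAs are also cut into fragments. Some enzymes that cut in the anticodon loop leave a 5′ hydroxyl, which a ligation that needs a 5′ monophosphate passes over. RNase P and Dicer leave a 5′ monophosphate. The list's name states lengths of 18 to 26 nt, so whole tRNAs and fragments longer than that were outside what was measured. tRNA genes are named below as the list names them, by genomic clone and a number after t. Amino acid and anticodon were not assigned to the genes here.

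The tRNA reads made up 0.0397% of the 1412353 reads on chromosomes (0.0365 to 0.0431), and most of them lay on few genes. K02E11.t1 (WBGene00014420, V 14231342 to 14231411, plus strand, not in a coding intron) held 228 reads (199 to 260), which is 40.6% of the tRNA reads (36.5 to 44.8). ZC132.t1 (WBGene00023207, V 4310644 to 4310671, plus strand) held 73 reads (57.2 to 91.8), or 13.0%. These 2 genes had more reads than the other 41 together, at 301 against 260. The intervals of K02E11.t1 and ZC132.t1 did not overlap each other, and that of ZC132.t1 did not overlap that of the next gene.

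A group of 7 genes followed with 11 to 37 reads. K02A4.t1 had 37 (26.1 to 51.0; X 12889861 to 12889942), M163.t1 25 (16.2 to 36.9; X 14486179 to 14486199) and F35A5.t1 24 (15.4 to 35.7; X 3793549 to 3793612). ZK783.t1 had 22 reads (III 7642105 to 7642146), in an intron of upp-1, a uridine phosphorylase gene. D1009.t1 had 18 (X 8925585 to 8925650), C38C6.t1 17 (II 14635294 to 14635319) and W03C9.t1 11 (5.49 to 19.7; II 11959291 to 11959345). From K02A4.t1 down to W03C9.t1 the counting intervals of neighbours in this order overlapped, so the order of neighbours is not fixed at this depth; the intervals of K02A4.t1 and W03C9.t1, at the ends of this group, did not overlap. A further 18 genes had 2 to 9 reads each, 90 in all, and 16 genes had 1 read. How many such single reads were placed wrongly was not measured. The median over the 43 genes was 3 reads.

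**Figure D1:**
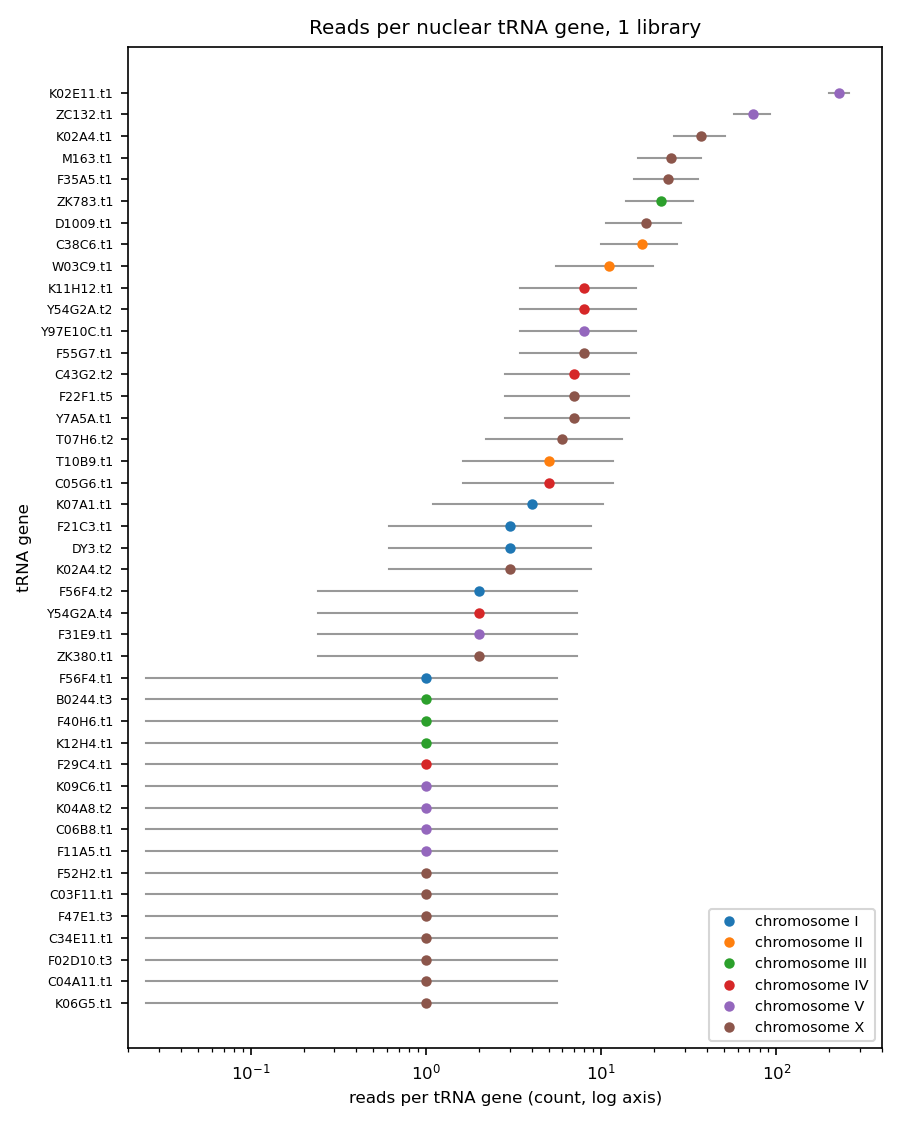
Reads of the monophosphate library on each of the 43 nuclear tRNA genes (count, log axis), coloured by chromosome, with exact 95% Poisson intervals as grey lines. K02E11.t1 with 228 and ZC132.t1 with 73 reads, both on chromosome V, stand to the right of the others, which run from 37 reads to 1.

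All 43 genes were found in the WBcel235 gene table, each listed there as tRNA and none as tRNA pseudogene; K06G5.t1 carries the symbol rtw-5 in that table. The table lists 612 nuclear tRNA genes, so reads were found for 7.03% of them (5.13 to 9.35). How reads that fit several genes were placed is unknown, so genes without reads cannot be said to lack fragments. By chromosome the share with reads ran from 3 of 57 on II (5.26%, 1.10 to 14.6) to 8 of 78 on V (10.3%, 4.53 to 19.2). The X chromosome, which holds 276 of the tRNA genes in the table, had reads for 17 (6.16%, 3.63 to 9.68). These intervals overlapped for every pair of chromosomes. Reads were less even than genes: V held 315 of the 561 reads, X 144, II 33, IV 31, III 25 and I 13, and 301 of those on V came from K02E11.t1 and ZC132.t1.

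The fragments lay in clusters of very unequal width. A cluster is the outer span of all reads that overlap, so its width is an upper bound on read length in narrow clusters, and in wider ones it tells how much of the gene was covered. Of the 47 clusters, 29 were narrow (18 to 26 nt) and 18 wider. The wide clusters held 454 reads, or 80.9% (77.4 to 84.1), and the narrow clusters 107, or 19.1% (15.9 to 22.6). This split rests on K02E11.t1 and ZC132.t1: the narrow share was 32.1% (27.1 to 37.4) without the cluster of K02E11.t1 and 41.2% (35.1 to 47.4) without both. It was 36.7% among clusters with a uniqueness value, taken as a measure of how firmly reads are placed, of at least 5. The median width was 24 nt over all clusters and 49 nt over the wide ones. Narrow clusters were most frequent at 21 to 23 nt, with 16 of 29. At 21 nt there were 5 clusters with 34 reads, at 22 nt 6 with 7 reads and at 23 nt 5 with 19 reads. M163.t1 alone gave 25 of the reads at 21 nt.

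Clusters that span nearly a whole tRNA were found on several genes. The cluster of K02E11.t1 was 70 nt wide, beside a gene length of 72 nt in the WBcel235 table. That of Y54G2A.t2 (IV 2802337 to 2802405, in an intron of Y54G2A.44) was 69 of 72 nt, D1009.t1 66 of 72 nt and F35A5.t1 64 of 73 nt. No read of the stated length range can cover these widths, so each is a chain of overlapping reads. K02E11.t1 had 41 distinct sequences among its 228 reads and Y54G2A.t2 8 among 8. The mean uniqueness of these clusters was low, from 1.05 in K02E11.t1 to 5 in Y54G2A.t2. Whether all reads of a chain came from the same gene thus cannot be told. Summed cluster width came to at least 80% of the gene length in 6 of the 43 genes, and to at most 40% in 28.

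Other genes had reads from a short stretch only. All 25 reads of M163.t1 lay within 21 of 73 nt, with 9 distinct sequences, and all 17 of C38C6.t1 within 26 of 82 nt, in an intron of sre-13, a chemoreceptor gene. The 73 reads of ZC132.t1 lay within 28 of 71 nt, with 19 distinct sequences. F55G7.t1 (X 11933651 to 11933668) had 8 reads in an 18 nt cluster with 2 distinct sequences, and T10B9.t1 (II 9773620 to 9773640) 5 reads in 21 nt, also with 2. K11H12.t1 (IV 658181 to 658207) had 8 reads within 27 of 86 nt. Y97E10C.t1 with 8 reads and F22F1.t5 with 7 each had a 23 nt cluster, the first with 5 distinct sequences and the second with 7. Intermediate widths were found on W03C9.t1 (55 of 73 nt), C43G2.t2 (53 of 72 nt), T07H6.t2 (50 of 72 nt), K07A1.t1 (50 of 82 nt), Y7A5A.t1 (48 of 82 nt) and ZK783.t1 (42 of 72 nt).

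**Figure D2:**
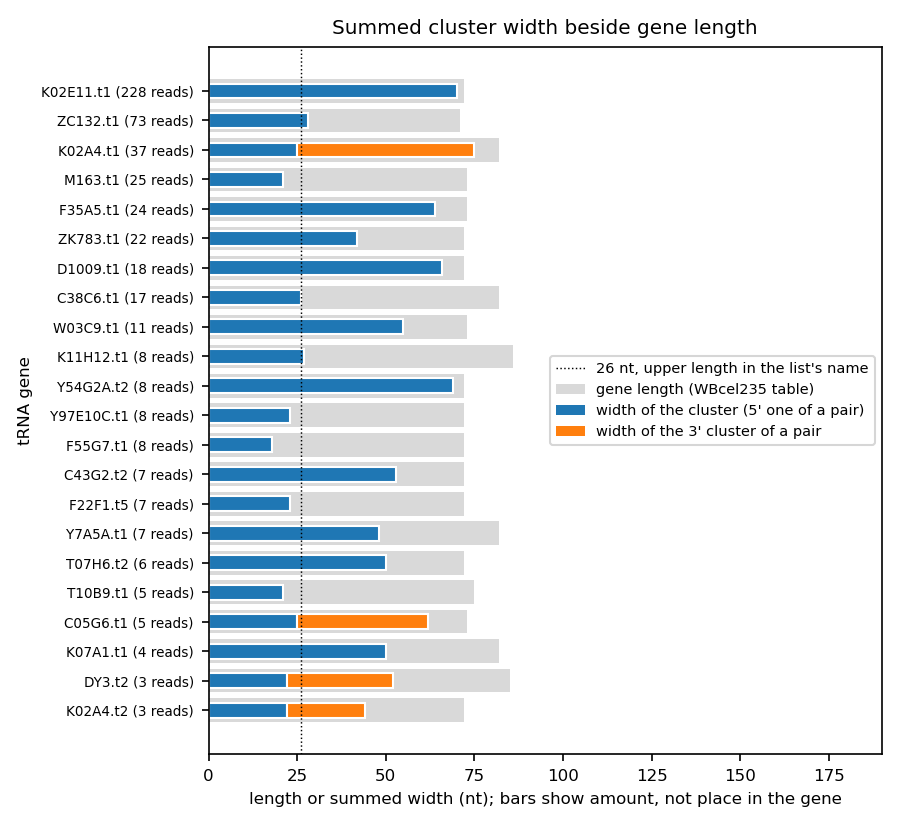
Width of the read clusters (coloured bars, nt) over the gene length in the WBcel235 table (grey bars, nt) for the 22 tRNA genes with the most reads, with 2 clusters or with the most or fewest edits; bars show amounts and not the place within the gene. K02E11.t1, Y54G2A.t2, D1009.t1 and F35A5.t1 are nearly filled by a single cluster, whereas M163.t1 and F55G7.t1 stay under the dotted line at 26 nt.

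Where in the gene a fragment lay could be read only from the list itself, because the list's genome build is not given and the bounds of its tRNA genes are not part of it. In 4 genes the reads fell into 2 separate clusters, which orders them along the tRNA. K02A4.t1 had 10 reads in a 25 nt cluster on the 5′ side and 27 reads in a 50 nt cluster on the 3′ side, 7 nt apart. The outer span of the pair was 82 nt, equal to the gene length of 82 nt in the WBcel235 table. C05G6.t1 (IV 620488 to 620553, in an intron of C18H7.1) had 3 reads in 25 nt on the 5′ side and 2 in 37 nt on the 3′ side, 4 nt apart. DY3.t2 (I 8781177 to 8781235, in an intron of the F-box gene mfb-1) had 1 read on the 5′ side and 2 on the 3′ side. K02A4.t2 (X 12890222 to 12890277), on the opposite strand beside K02A4.t1, had 2 reads on the 5′ side and 1 on the 3′ side, 12 nt apart. The 3′ side thus had more reads in K02A4.t1 and DY3.t2 and fewer in the other 2, and in 3 of the 4 pairs the difference was 1 read.

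Little lay beside the tRNA clusters. Only 1 other cluster, of 1 read, was found on the same strand within 150 nt of any of them. By the list's annotation 17 of the 43 genes lie in an intron of a protein-coding gene on the same strand, with 94 reads (16.8%, 13.8 to 20.1) in 19 clusters. Among their host genes, opt-3, an oligopeptide transporter gene, holds both F56F4.t1 with 1 read and F56F4.t2 with 2. The homeobox gene ceh-26 holds K12H4.t1 and the nuclear receptor gene nhr-150 holds C06B8.t1, each with 1 read. Reads of such genes cannot be told apart from reads of the host's intron. No tRNA cluster overlapped a coding exon or a repeat in sense.

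Most edits were recorded on the same 2 genes. The list counts edits without defining them, and they are taken here as differences between reads and genome, an assumption on which all edit rates rest. On no line do the edits exceed the reads, so 1 edit per read is the highest rate in the list. Whether more than 1 edit can be counted in a read is unknown. In all, 129 edits were recorded for the 561 reads, or 0.230 per read (0.192 to 0.273). ZC132.t1 had 68 edits in 73 reads, 0.932 per read, and K02E11.t1 had 42 in 228 reads, 0.184 per read. Together they took 85.3% of the edits (78.0 to 90.9) and held 53.7% of the reads (49.4 to 57.8). The rate of K02E11.t1 was below the 0.230 of all tRNA reads, though its interval (0.133 to 0.249) held that value. The rate of ZC132.t1 was above 0.230. ZC132.t1 thus had nearly as many edits as reads and K02E11.t1 far fewer edits than reads. The other 45 clusters had 19 edits in 260 reads, 0.0731 per read (0.0440 to 0.114), spread over 11 clusters.

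Among the 19 genes with at least 5 reads, the next highest rates were in C43G2.t2 with 3 edits in 7 reads (IV 6562197 to 6562249, in an intron of C43G2.4) and F55G7.t1 with 3 in 8. D1009.t1 followed with 3 in 18. No edit was recorded in 9 of the 19, which include F35A5.t1 with 24 reads, C38C6.t1 with 17 and W03C9.t1 with 11. M163.t1 had 2 edits in 25 reads, and K02A4.t1 and ZK783.t1 had 1 each in 37 and 22. The rate of ZC132.t1 was rare in the library as well. Of the 939 clusters on chromosomes with at least 20 reads, 24 had more than 0.5 edits per read (2.56%, 1.64 to 3.78). In 22 of these 24 the edits equalled the reads, the highest rate in the list. ZC132.t1 was just under that rate, at 0.932. Of the 24, ZC132.t1 was the only one annotated as tRNA, rRNA, snRNA, snoRNA, miRNA or piRNA. The share of all 939 clusters with such an annotation is not given here, so this count has no background to be read against.

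Conversions, which the list counts separately without naming the base change and which exceed the edits on no line, numbered 16 in the tRNA clusters. Of these, 14 were on ZC132.t1, beside its 68 edits. The list gives 1 conversion position for ZC132.t1 and records V 4310659 with it, which is base 16 of the cluster counted from its 5′ end. K02E11.t1 had 1 conversion, recorded at V 14231367, base 26 of its cluster. F31E9.t1 (V 17317898 to 17317927, minus strand), with 2 reads and 2 edits, had the remaining 1, at base 14. The other 44 clusters had none.

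How firmly reads can be assigned to a tRNA gene is given by the list's uniqueness value, which is taken here as how much better reads fit this position than any other; the list does not define it. On all 51569 lines it is the integer part of a sum over reads divided by the number of reads, so the mean per read can be computed. For a single read without edits it was 2 per nt of width in 93.3% of such clusters on chromosomes (32780 of 35126). In the tRNA clusters 7 of 17 such reads reached that value (41.2%, 18.4 to 67.1), and 9 of the 17 had a value of 8.

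K02E11.t1 had a mean uniqueness of 1.05 per read, the lowest of the genes named here. Whether its 228 reads came from K02E11.t1 or from a near-identical tRNA gene cannot be told apart. F35A5.t1 (2.33), C05G6.t1 (2.40), D1009.t1 (2.78), Y54G2A.t2 (5), ZK783.t1 (5.64), C43G2.t2 (6) and Y7A5A.t1 (7.14) were also low. ZC132.t1 had 32.4 per read, K02A4.t1 37.0, M163.t1 26.4, T10B9.t1 42.0 and K11H12.t1 47.5. Of the 11 clusters at least 40 nt wide, 8 had a mean under 10. Clusters under 10 held 348 of the tRNA reads (62.0%, 57.9 to 66.1), and 120 of the 333 reads outside K02E11.t1 (36.0%, 30.9 to 41.4).

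**Figure D3:**
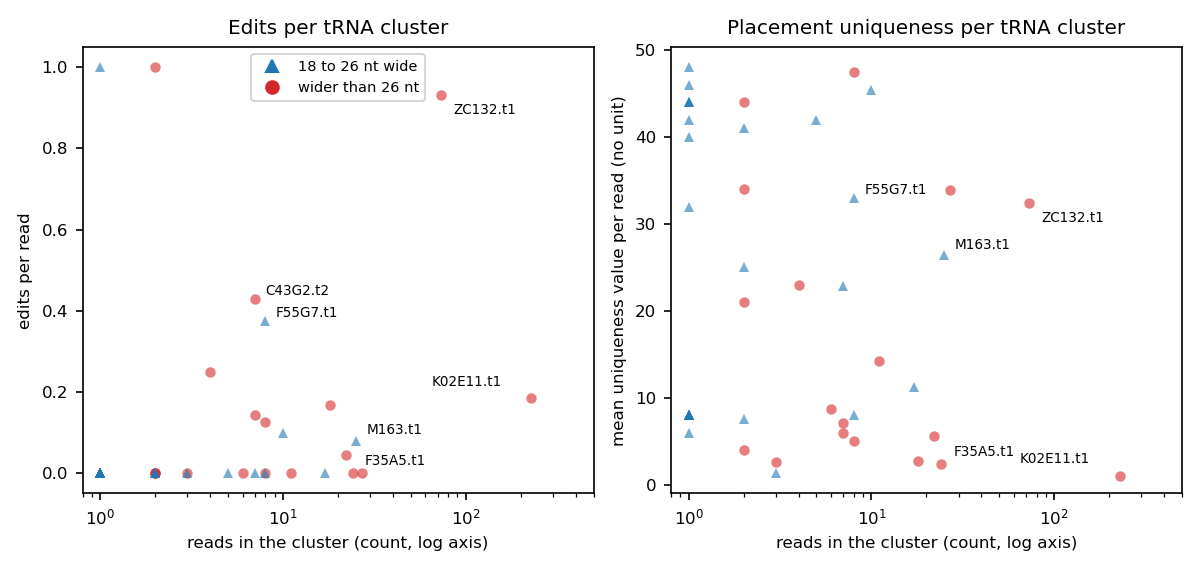
Edits per read (left) and mean uniqueness value per read (right) against reads (count, log axis) for the 47 tRNA clusters; triangles are clusters of 18 to 26 nt and circles wider ones. ZC132.t1 combines 0.932 edits per read with a uniqueness of 32.4, and K02E11.t1, with the most reads, has the lowest uniqueness, 1.05.

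Beside other classes of the same library, tRNA clusters had more edits per read. Their share of clusters with a mean uniqueness under 10 was above those of the other classes, but its interval overlapped that of snRNA clusters. Edits per read were 0.0103 in snRNA clusters (0.00335 to 0.0241), the spliceosomal RNAs, and 0.0119 in clusters of snoRNAs, which guide modification of ribosomal RNA. They were 0.0124 in miRNA, 0.0116 in piRNA and 0.0314 in sense coding exon clusters (0.0300 to 0.0327). The tRNA value of 0.230 was above all of these. Without ZC132.t1 and K02E11.t1 the tRNA value of 0.0731 (0.0440 to 0.114) was above the intervals of these 5 classes taken over all their clusters. Counting each cluster of at least 5 reads once, 10 of 19 tRNA clusters had any edit (52.6%, 28.9 to 75.6). It was 3 of 15 in snRNA clusters (4.33 to 48.1%), 35.1% in snoRNA (26.4 to 44.6), 60.2% in miRNA (52.4 to 67.7), 20.7% in piRNA and 20.9% in exon clusters. The tRNA interval by this count overlapped those of snRNA, snoRNA and miRNA. The median reads of the clusters counted were 10 for tRNA, 14 for snRNA, 18 for snoRNA and 104.5 for miRNA, and more reads give an edit more chances to be seen.

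Conversions per read were 0.0285 in tRNA clusters (0.0163 to 0.0463) and at most 0.00219 in the other 5 classes. Without the cluster of ZC132.t1 the tRNA value was 0.00410 (0.000496 to 0.0148), and that interval held the 0.00219 of exon clusters. Mean uniqueness was under 10 in 48.9% of tRNA clusters (34.1 to 63.9) and 40.6% of snRNA clusters (23.7 to 59.4), which overlap, against 4.27% for snoRNA, 3.38% for miRNA, 2.56% for piRNA and 4.99% for exon clusters. The share of reads in narrow clusters was 19.1% for tRNA, 14.9% for snoRNA (13.9 to 15.9) and 5.37% for snRNA (3.54 to 7.77), and 68.9% for miRNA and 97.9% for piRNA, whose products are cut to a set length. Without K02E11.t1 and ZC132.t1 the tRNA share was 41.2% (35.1 to 47.4), set beside other classes that kept all their clusters. It was then above the shares of snoRNA and snRNA and below those of miRNA and piRNA. It was also below the 50.6% of exon clusters (50.2 to 51.0). No p-value belongs to these comparisons, since 1 library was measured and its reads, which carry no molecular identifiers, need not be independent molecules.

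**Figure D4:**
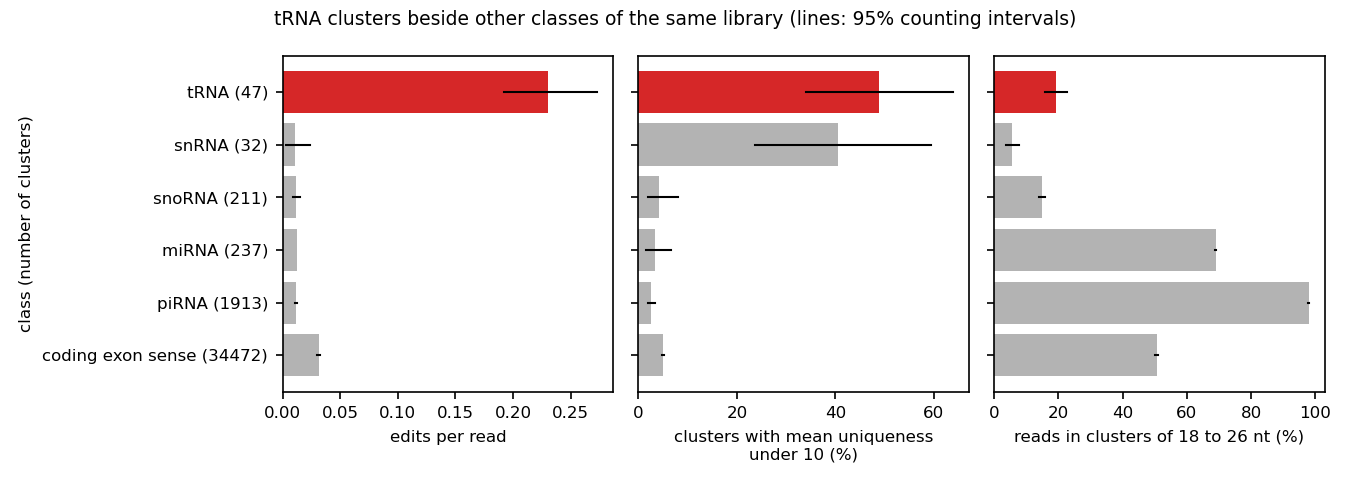
Edits per read, percent of clusters with a mean uniqueness under 10, and percent of reads in clusters of 18 to 26 nt, for tRNA (red) and 5 other classes (grey) of the monophosphate library; black lines are exact 95% counting intervals. tRNA clusters have 0.230 edits per read, above the other classes, and low uniqueness in 48.9% of clusters beside 40.6% for snRNA; their narrow share of 19.1% was 41.2% without K02E11.t1 and ZC132.t1.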

How the data were processed

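The deposited list gives raw read counts per cluster of the monophosphate library, without normalization, with edits, conversions, width, a uniqueness sum and annotation. Conversion counts are also deposited as a column of their own, with the same values. A deposited score, the cluster's entropy, was not used. The list was assigned to this library because its name abbreviates that title and no other. The submitters' processing notes name Bowtie2 2.1.0 without its role; no source used here names the build, annotation release, trimming or filters. How tRNA reads that fit several genes, or that end in the added CCA, were treated is thus unknown.

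Each nuclear cluster got the first class that fitted: rRNA, then tRNA, snRNA, snoRNA, miRNA, piRNA or sense coding exon. The tRNA clusters and all measures were chosen with earlier results of these data known. Named genes were the 20 with the most reads, those with 2 clusters, the 3 of at least 5 reads with the most edits per read and the 3 with the fewest (9 tied at 0, taken by reads), and the one with the widest cluster, 22 genes in all; others are named as examples chosen after their values were seen. Gene names, types and lengths came from the WBcel235 table, whose coordinates were not used. The total of 1417144 reads is that of the deposited clusters of a length class and not the library depth. Intervals are exact Poisson for counts and rates and Clopper-Pearson for shares (Python 3.11.15, scipy 1.17.1). The rules that pick tRNA clusters and clusters antisense to tRNA, and the intervals, were tested on simulated data. The order of classes was not.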

Additional observations from a re-analysis of the deposited data

Results flagged for a closer look

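Reads antisense to tRNA genes were outside the comparisons above. There were 7 of them (95% Poisson interval 2.81 to 14.4), each a cluster of 1 read without edits. No background rate for single reads was measured, from the sequence named markov or otherwise, so whether 7 is more than stray reads would give was not tested. They made up 1.23% (0.497 to 2.52) of tRNA reads on either strand. The list annotates them as antisense to 7 genes, F58D5.t1, F10C1.t1, Y54G2A.t2, B0513.t1, W02G9.t2, ZC132.t1 and C06B8.t1, of which Y54G2A.t2, ZC132.t1 and C06B8.t1 also had sense reads.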

How the results depend on the processing

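No paired analysis was possible because 1 library was analysed. Of 39 alternative values, 20 stayed within the counting interval of the reported value or, for counts, within 1.5 times of it. These 20 include all values under tRNA annotation alone, a setting that could not change any of them. Requiring a uniqueness value of at least 5 removed K02E11.t1 among others and left 283 reads, with 25.8% on the leading gene, then ZC132.t1, 36.7% in narrow clusters, 0.297 edits and 0.0530 conversions per read. Without the cluster of K02E11.t1 there were 333 reads, 21.9% on ZC132.t1 and 32.1% in narrow clusters. With at least 2 reads per cluster, 27 genes had reads and the median width was 30 nt. Weighted by distinct sequences, K02E11.t1 held 18.6% and narrow clusters 27.7%. The edits, still counted over all reads, came to 0.586 for each distinct sequence, which is not a share of sequences with an edit. Narrow clusters alone had 0.0654 edits per read. Alternatives chosen after seeing the data gave 0.125 edits and 0.00410 conversions per read without ZC132.t1, and 0.0731 edits, 0.00385 conversions and 41.2% in narrow clusters without it and K02E11.t1. No tRNA cluster had another non-coding, repeat or coding exon annotation in sense, so requiring tRNA annotation alone changed nothing. Counting either strand gave 568 reads on 47 genes. Most genes had too few reads to rank at this depth.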

Other observations

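Of the 7 antisense clusters, 3 carry the annotation CER7-I_CE in sense, the internal part of an LTR retrotransposon of the Pao type. LTR retrotransposons begin reverse transcription from a tRNA that pairs with their primer binding site. Whether this has any bearing on these reads was not tested. The clusters lay at II 5782181 to 5782202 (22 nt, annotated as antisense to F10C1.t1), IV 2802397 to 2802414 (18 nt, Y54G2A.t2) and V 4310587 to 4310604 (18 nt, ZC132.t1). The sense clusters of Y54G2A.t2 and ZC132.t1 are on the plus strand. The antisense cluster lay at the 3′ end of the sense cluster for Y54G2A.t2 and on its 5′ side for ZC132.t1. With the sense cluster of the same gene the outer span was 78 nt for Y54G2A.t2 and 85 nt for ZC132.t1. The gene lengths in the WBcel235 table are 72 and 71 nt, so at least 6 and 14 nt of these spans lie beyond the tRNA gene, and the overlap with it may be short. On chromosomes 7 clusters with 8 reads carried this annotation in sense, so 3 of the 7 were also annotated as antisense to a tRNA gene. The uniqueness values of the 3 were 44, 36 and 36, which is 2 per nt. Whether these reads came from the retrotransposon or from the tRNA locus was not tested.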
